A study of Rattus norvegicus with 192 samples.

Results

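Hexaconazole is a triazole fungicide, and 6 of the 192 libraries of the series come from hepatocytes exposed to it. They were chosen by their titles: 1 library each at 0.14, 0.4, 1.2, 3.7, 11.1 and 33.3 µM. The cells were hepatocytes freshly isolated from the livers of male rats and plated on collagen, and both the treated and the control wells carried 0.1% DMSO for 24 h. The controls were DMSO replicates 2 to 9, 8 libraries. Replicate 1 correlated with these at only 0.733 to 0.844 (log2 CPM, where CPM is a probe's count scaled to a common library total) and was left out by the rule that chose the libraries. The strain, the age of the animals, and whether wells come from separate animals or cultures are not given in the sources used here. The p-values therefore describe library-to-library spread alone, part of which may be technical. RNA was read with TempO-Seq, a targeted assay in which pairs of short probes are joined on each transcript and counted.

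Triazoles bind the heme iron of cytochrome P450 enzymes, and in fungi they block lanosterol demethylase, the P450 encoded by Cyp51. In liver, foreign chemicals are sensed by the nuclear receptors CAR and PXR and by the aryl hydrocarbon receptor AhR. Cyp2b genes are the classic targets of CAR, Cyp3a genes of PXR and Cyp1a genes of AhR. Their products oxidise the chemical, and UDP-glucuronosyltransferases (Ugt) and glutathione transferases (Gst) then make it water soluble.

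The hexaconazole libraries held 6221728 to 8928432 counts and the DMSO libraries 2876741 to 8513985. Summed hepatocyte markers lay at 31790 to 36743 CPM in the hexaconazole libraries and 28306 to 49454 CPM in DMSO. Endothelial markers summed to at most 10.96 CPM with hexaconazole and 12.2 CPM in DMSO, and macrophage markers to at most 74.4 and 81.9 CPM. Stellate cell markers summed to 13.8 to 17.6 CPM with hexaconazole and 10.1 to 14.7 CPM in DMSO, and bile duct markers to 15.9 to 22.4 and 16.0 to 29.2 CPM. Among the libraries fitted, DMSO replicate 5 stood apart, with a library score (the first principal component of all 192 libraries) of 2.74 against -0.995 to 0.36 in the other 7 controls. The hexaconazole library at 1.2 µM had the next highest score, 0.91. All 6 hexaconazole libraries were on plate 1 with DMSO replicates 2 and 3. The DMSO ranges given below span all plates, so a dose inside a range can still lie outside the plate 1 controls.

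The question of the dose series is which transcripts follow the dose of hexaconazole. Rising genes were found almost entirely among drug metabolism enzymes: Cyp2b2, Cyp1a1, Cyp2c6v1, the Cyp3a probes, Ugt2b10, Ugt2b1 and Gsta2, with the plasma protein gene Crp as the other one. In these bulk samples a lower level can mean fewer cells of a type or less RNA per cell, which cannot be told apart. The trend is given as the fitted log2 change at 33.3 µM relative to DMSO, from the slope on log2(1 + dose). Of 11055 probes tested, 10 passed an adjusted p of 0.05 (edgeR's quasi-likelihood test, Benjamini-Hochberg), or 0.0905%, and all 10 rose. None fell by that rule with edgeR. At an unadjusted p under 0.05, 308 probes (2.79%) were lower and 218 (1.97%) higher. Chance alone passes that level at a rate of about 0.05, both directions together. DESeq2 called 25 probes, 15 higher and 10 lower. With the 2 plate 1 controls as the only DMSO libraries, 13 probes were called, all 10 among them. That fit is no separate check, because the plate factor already sets each change almost wholly against these 2 controls. The DMSO libraries of the other plates mainly inform the spread.

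Cyp3a genes encode the main steroid and drug oxidases of liver, and their start regions are shown because they hold a sequence known as a PXR binding arrangement. The 10 probes belong to 9 RefSeq genes, since Cyp3a1 and Cyp3a23/3a1 are listed there as names of 1 gene, Cyp3a23-3a1. For 7 of the 9 the RefSeq promoter table (assembly GRCr8) holds a window of 250 bases before to 50 bases after the gene's start. The windows were searched on both strands for a pair of half-sites, each AGGTCA or AGTTCA, in direct repeat with 3 bases between them. This motif occurred in 14 of 33469 windows (0.0418%), which belong to 11 genes. Among the probes tested, 3 belong to such genes, and these are Cyp3a1, Cyp3a23/3a1 and Cyp3a2, all of which are among the 10 called. The 250 bases before the start are printed 5′ to 3′ on the gene's strand, both on the minus strand of chromosome 12, with the motif in capitals. It lies there as its reverse complement, at 144 to 130 bases before the start in Cyp3a23-3a1 (chr12:14398804-14399053) and at 131 to 117 in Cyp3a2 (chr12:14343858-14344107).
Cyp3a23-3a1: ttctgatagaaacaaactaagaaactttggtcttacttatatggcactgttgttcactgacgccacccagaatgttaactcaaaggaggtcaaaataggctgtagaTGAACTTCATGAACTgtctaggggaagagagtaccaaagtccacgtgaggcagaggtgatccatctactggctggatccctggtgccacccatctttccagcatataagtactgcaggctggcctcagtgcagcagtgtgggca
Cyp3a2: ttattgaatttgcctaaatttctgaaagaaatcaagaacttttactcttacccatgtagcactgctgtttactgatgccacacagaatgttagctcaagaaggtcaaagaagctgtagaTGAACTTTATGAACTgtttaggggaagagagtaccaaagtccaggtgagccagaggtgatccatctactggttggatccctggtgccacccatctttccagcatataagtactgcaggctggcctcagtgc
The motifs of the 2 genes differ at 1 of 15 bases, in the spacer. Direct repeats with 4 or 5 bases between the half-sites, and everted repeats with 6, occurred in 6, 10 and 2 windows, none of them a window of a called gene. A match describes these letters and is not a measured binding site.

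The probe named Cyp3a1 was abundant without treatment, at 366, 471 and 552 CPM (lowest, median and highest of 8 DMSO libraries). It read 445, 510, 581, 762, 1015 and 1455 CPM from 0.14 to 33.3 µM. Every library from 1.2 µM upward lay above all DMSO libraries, and the level increased from each dose to the next. The fitted change was 1.53 ± 0.15 (SE, adjusted p = 8.92e-05, edgeR). The second probe of the gene, Cyp3a23/3a1, was much less bright, at 13.2, 20.9 and 30.4 CPM in DMSO. It stayed at 20.8, 19.7 and 19.8 CPM up to 1.2 µM and then read 40.9, 51.4 and 88.9 CPM. Both probes thus rose, from 1.2 µM on one and from 3.7 µM on the other by the DMSO range, with 1.85 ± 0.25 for Cyp3a23/3a1 (adjusted p = 0.00265, edgeR). Cyp3a2, a Cyp3a gene expressed mainly in males, had 389, 471 and 516 CPM in DMSO and 476, 494, 599, 585, 678 and 874 CPM by dose. Its change was smaller, 0.95 ± 0.13 (adjusted p = 0.00265, edgeR), and the 4 highest doses lay above the DMSO range. Cyp3a9, a further family member, did not pass the test (-0.26 ± 0.17).

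Cyp2b2, the phenobarbital-inducible P450 of rat liver, had the highest fitted change of the 10. It was close to undetected in DMSO, at 0.70, 1.64 and 3.26 CPM. The libraries read 1.46, 2.03 and 1.93 CPM up to 1.2 µM, then 12.5, 31.0 and 41.7 CPM at 3.7, 11.1 and 33.3 µM. In counts this is 89, 217 and 269 at the 3 highest doses, against a highest count of 25 in any DMSO library. The 3 low doses lay inside the DMSO range and the 3 high doses far above it, 25.4 times the DMSO median at 33.3 µM. The fitted change was 4.98 ± 0.49 (adjusted p = 8.92e-05, edgeR). Cyp2b1, its near-identical sister gene, was not analysed here, and reads of the pair may not be separated. Cyp2b3, a Cyp2b gene that is not classed as inducible, was not called (-0.36 ± 0.25). Cyp2c6v1, a phenobarbital-responsive Cyp2c gene, went from 185, 236 and 258 CPM in DMSO to 245, 250, 299, 320, 402 and 491 CPM by dose. It rose by 1.10 ± 0.12 (adjusted p = 3.49e-04, edgeR), with the 4 highest doses above all DMSO libraries.

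Cyp1a1, the hallmark AhR target, was the faintest of the 10. DMSO libraries read 0, 1.15 and 3.40 CPM and the hexaconazole libraries 0.560, 1.08, 0.804, 3.51, 4.15 and 10.1 CPM. These are 5, 9, 5, 25, 29 and 65 counts, so the rise rests on few reads and on the 3 highest doses, of which 3.7 µM barely cleared the highest DMSO library. The fitted change was 3.85 ± 0.49 (adjusted p = 0.00126, edgeR). Of the 4 tested AhR targets it was the only one called in this fit. Cyp1a2, the second Cyp1a enzyme, read 52.1 to 89.3 CPM over the doses within or next to a DMSO range of 29.5 to 87.2 CPM (0.64 ± 0.27, adjusted p = 0.893). With the library score as a covariate Cyp1a2 was called too (0.68 ± 0.13, adjusted p = 0.00408, edgeR). Nqo1, a quinone reductase, had 0.06 ± 0.17, and its sign turned when DMSO replicate 3 (-0.01) or the 11.1 µM library (-0.04) was left out.

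Among the conjugating enzymes, Ugt2b10 gave the smallest p of all probes. DMSO libraries had 190, 244 and 348 CPM, and the hexaconazole libraries 259, 268, 391, 644, 805 and 1259 CPM. The level climbed with each dose and passed the DMSO range at 1.2 µM. The change was 2.18 ± 0.18 (adjusted p = 3.51e-05, edgeR). Ugt2b1, an inducible member of the same family, read 42.1, 52.4 and 83.7 CPM in DMSO and 48.9, 55.7, 70.2, 128, 181 and 263 CPM by dose. It passed the DMSO range 1 dose later, at 3.7 µM, and rose by 2.07 ± 0.24 (adjusted p = 4.29e-04, edgeR). Gsta2, an alpha-class glutathione transferase, had 207, 237 and 280 CPM in DMSO against 242, 225, 288, 306, 372 and 460 CPM, a rise of 1.07 ± 0.13 (adjusted p = 5.70e-04, edgeR). Other family members did not pass: Ugt2b15 had 0.43 ± 0.18 and Ugt1a1, the bilirubin transferase, 0.19 ± 0.22. Ugt1a1 is of unsettled sign, at -0.54 without the 33.3 µM library. Paralogs in the Ugt2b, Gsta and Cyp3a families can share reads, so the assignment to a single member is uncertain.

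Crp, the C-reactive protein gene of hepatocytes, had 475, 558 and 628 CPM in DMSO and 580, 586, 629, 712, 774 and 877 CPM by dose. The rise was small, 0.60 ± 0.11 (adjusted p = 0.0492, edgeR). It was lost in 13 of 14 fits that each left out 1 library. Of the 16 tested acute phase and inflammation genes Crp was the only one called. The iron hormone gene Hamp had 0.64 ± 0.28 (adjusted p = 0.945).

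**Figure D1:**
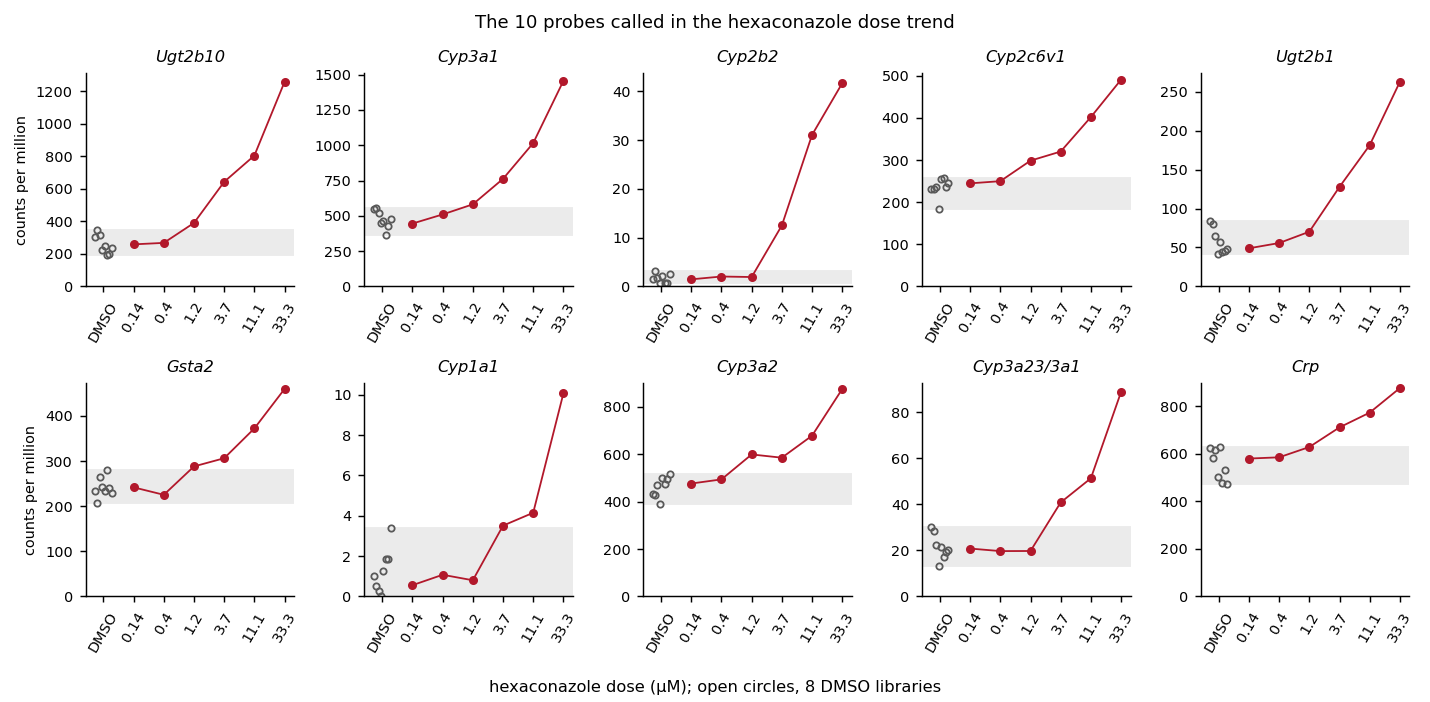
CPM (linear axis from 0) of the 10 called probes by hexaconazole dose in µM (filled points, 1 library each, joined by lines) and in the 8 DMSO libraries (open circles, with the grey band from lowest to highest). All 10 lie above the DMSO band at 3.7 µM and higher doses, and none does at 0.14 or 0.4 µM.

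The 33.3 µM library carried much of the statistical weight. Without it 7 probes were called, and only Ugt2b10, Cyp2b2 and Cyp3a1 of the 10 were among them, with changes of 2.21, 5.93 and 1.40 on the same scale. The other 7 kept their sign without it. Tested one library at a time against the DMSO libraries, none of the libraries from 0.14 to 11.1 µM gave a call with edgeR, where 165, 239, 697, 280 and 356 probes had an unadjusted p under 0.05. DESeq2 gave 0, 1, 0, 0 and 8 calls at these doses. The 33.3 µM library gave 5 (0.0452% of those tested): Ugt2b10, Ugt2b1, Cyp2b2, Adm and Mt10.7. These 5 calls are fragile, since between 0 and 24 probes were called when single DMSO libraries were left out. It was 0 without replicate 2, 3, 6, 7 or 8, 2 without replicate 4 and 24 without replicate 5.

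The list of CAR and PXR targets was, as the other lists were, chosen with earlier results of these data known. Of 30 listed genes 20 were tested, 7 rose, none fell and 13 were not called. Over all 11055 tested probes 10 were called (0.0905%). The median change of the list was 0.56 against -0.01 over all probes. The 7 that rose are Cyp2b2, Ugt2b1, Cyp3a23/3a1, Cyp3a1, Cyp2c6v1, Gsta2 and Cyp3a2. Por, the reductase that feeds electrons to every microsomal P450, read 319, 358, 357, 346, 393 and 538 CPM against 265, 302 and 437 CPM in DMSO. Alas1, the rate-limiting enzyme of heme synthesis, read 190, 235, 236, 233, 288 and 285 CPM against 137, 165 and 251 CPM. For both, only the top doses exceeded the DMSO range, and the trends of 0.71 ± 0.21 (adjusted p = 0.449) and 0.67 ± 0.23 (adjusted p = 0.705) were not called. DMSO replicate 5 was the highest control for Por, while the plate 1 controls, at 297 and 303 CPM, lay below every dose. With the library score as a covariate, Por rose by 0.68 ± 0.12 (adjusted p = 0.00261, edgeR) and Alas1 by 0.64 ± 0.10 (adjusted p = 5.49e-04, edgeR). That fit called 167 probes, 79 higher and 88 lower, with all 10 among them. The score is itself computed from expression, treated libraries included. The transporter genes Slco1a4 (0.53 ± 0.22) and Abcc3 (0.58 ± 0.28) were not called.

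Genes of fatty acid breakdown that are targets of PPARa, the receptor for fatty acids and fibrate drugs, leaned lower without passing the test. Of 25 tested none was called with edgeR, 23 had a negative trend and the median was -0.35, where 5766 of all 11055 probes were negative with a median of -0.01. At an unadjusted p under 0.05, 7 were lower (2.79% of all probes were) and none higher, and DESeq2 called Cd36 as lower. Cd36, a fatty acid carrier, read 135, 94.5, 92.6, 121, 91.6 and 61.5 CPM against 111, 132 and 171 CPM in DMSO. Cpt1a, which admits fatty acids to mitochondria, lay outside its DMSO range of 12.9 to 26.5 CPM only at 33.3 µM (9.45 CPM). The trends were -0.83 ± 0.20 for Cd36 (adjusted p = 0.251) and -0.87 ± 0.30 for Cpt1a (adjusted p = 0.684). Cd36 at 3.7 µM lay inside the DMSO range while 0.4 and 1.2 µM lay below it, so its levels were uneven over the doses. Decr1, an auxiliary enzyme of fatty acid oxidation, had -0.44 ± 0.16 (adjusted p = 0.705). With the library score as a covariate 4 of the 25 fell, Cd36 by 0.81 ± 0.16 on the log2 scale (adjusted p = 0.00476, edgeR).

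Targets of NRF2, the factor that answers oxidative and electrophilic stress, gave no call with edgeR among 19 tested, with a median of 0.28 and 6 higher at an unadjusted p under 0.05. DESeq2 called 1, Hmox1. Hmox1, which degrades heme, came closest. It read 448, 484, 464, 547, 609 and 813 CPM against 241, 310 and 595 CPM in DMSO, and its trend was 1.17 ± 0.22 (adjusted p = 0.0736, edgeR). Only the libraries at 11.1 and 33.3 µM exceeded every control, while the plate 1 controls, at 291 and 308 CPM, lay below every dose. The fit passed the threshold in 4 of 14 fits with 1 library left out. Srxn1, which repairs oxidised peroxiredoxins, lay above the DMSO range of 70.9 to 91.1 CPM at 4 doses, with 115 CPM at 33.3 µM and a trend of 0.57 ± 0.15 (adjusted p = 0.378). Gclc, a subunit of the enzyme that starts glutathione synthesis, exceeded its DMSO range of 114 to 187 CPM only at 33.3 µM, with 217 CPM (0.49 ± 0.15, adjusted p = 0.48).

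Sterol synthesis, the pathway of the fungicide's fungal target, gave no call. Of 17 tested cholesterol synthesis genes 10 had a positive and 7 a negative trend, with a median of 0.03. None had an unadjusted p under 0.05 with edgeR, and DESeq2 called none. Cyp51 itself read 270, 230, 256, 264, 289 and 259 CPM, all inside the DMSO range of 209 to 312 CPM, with a trend of 0.21 ± 0.17. Insig1, which holds back sterol synthesis when sterols are plentiful, had 0.62 ± 0.37. Fdps, which makes farnesyl diphosphate, had -0.87 ± 0.41.

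Among 11 tested genes of glycolysis and fructose use edgeR called none (1 higher and 2 lower at an unadjusted p under 0.05), while Tkfc was lower by DESeq2. The 8 gluconeogenesis and glucocorticoid targets gave no call with either tool. Tkfc, an enzyme of fructose use, had a trend of -0.96 ± 0.21 (adjusted p = 0.202), and the gluconeogenic enzyme gene Fbp1 -0.52 ± 0.15 (adjusted p = 0.435). Fbp1 and Tkfc each lay below all DMSO libraries at the 2 highest doses, Tkfc at 37.6 and 36.5 CPM against at least 43.3 CPM. The plate 1 controls lay above every dose, at 74.6 and 79.9 CPM for Tkfc and 642 and 624 CPM for Fbp1. Pgk1, a glycolytic enzyme, exceeded its DMSO range only at 33.3 µM, with 301 CPM. Among other P450 and steroid genes none of 17 was called with edgeR or DESeq2, with 2 higher and 2 lower at an unadjusted p under 0.05. Srd5a1, a steroid 5-alpha reductase, exceeded all DMSO libraries at 33.3 µM alone (280 CPM against a maximum of 233 CPM, on plate 3). Its plate 1 controls read 109 and 87.5 CPM, below every dose (125 CPM or more). The male-specific Cyp2c11 read 464 CPM at 0.14 µM and 627 CPM at 33.3 µM, against 447 to 514 CPM in DMSO (0.37 ± 0.11, adjusted p = 0.511, edgeR). Hsd3b2, a steroid dehydrogenase outside that list and named after its values were seen, read 16, 19, 17, 7, 4 and 1 counts by dose. DMSO libraries held 3, 13.5 and 22 counts (lowest, median and highest), so the gene is near the floor. In CPM only the 2 highest doses lay below the DMSO range (0.572 and 0.155 against at least 0.946 CPM). The trend of Hsd3b2 was -3.43 ± 0.65 (adjusted p = 0.0736, edgeR). It was called as lower by DESeq2, without DMSO replicate 5 and the 1.2 µM library together, and with the library score (-3.35 ± 0.68, adjusted p = 0.00893, edgeR). No call was made in the lists of p53 targets, integrated stress response, heat shock, endoplasmic reticulum chaperones, cell cycle, bile acid synthesis or plasma proteins, which hold 8, 15, 8, 10, 11, 6 and 14 tested genes, nor by DESeq2. Across these 7 lists 1 gene, of the bile acid list, had an unadjusted p under 0.05.

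**Figure D2:**
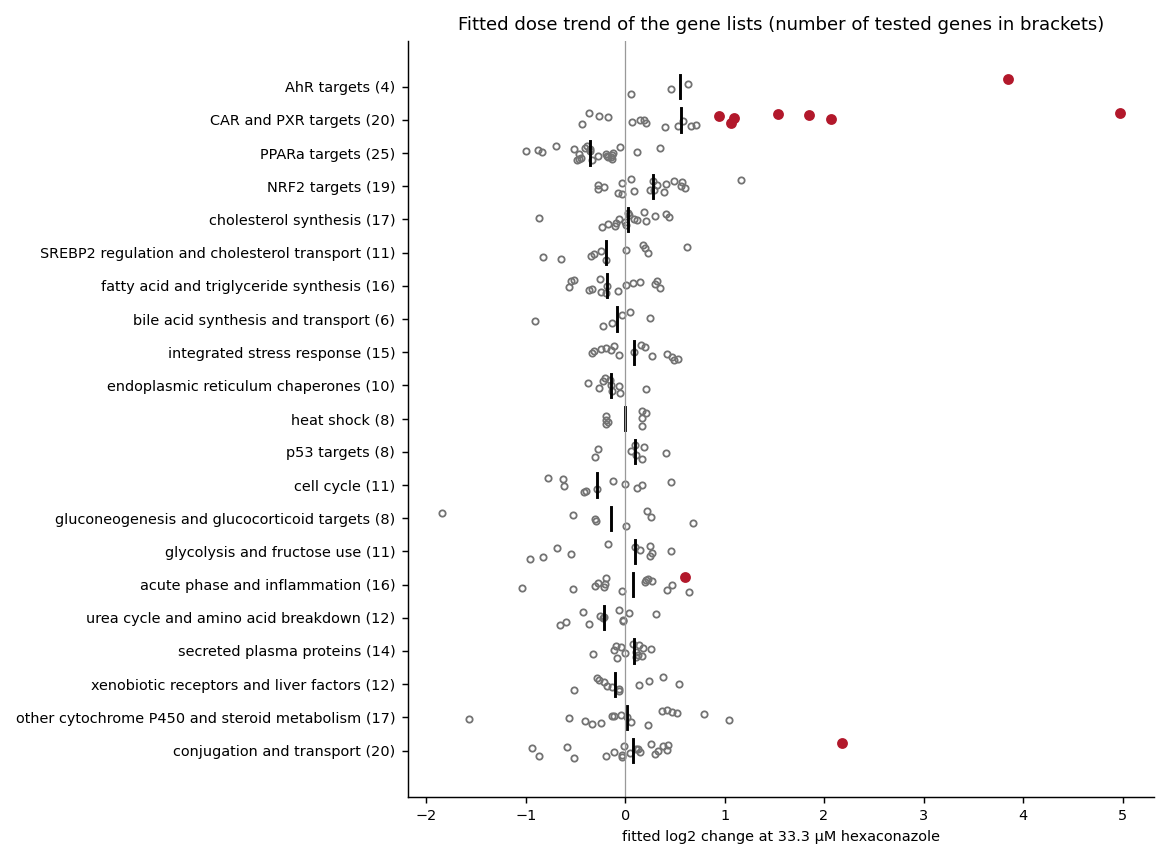
Fitted log2 change at 33.3 µM hexaconazole (x axis) of every tested gene in 21 lists (y axis), with filled red points for called genes, open circles for the others and a bar at each list's median. The CAR and PXR targets have a median of 0.56 and hold 7 of the filled points, and the PPARa targets sit to the left of 0 with a median of -0.35 and no filled point.

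**Figure D3:**
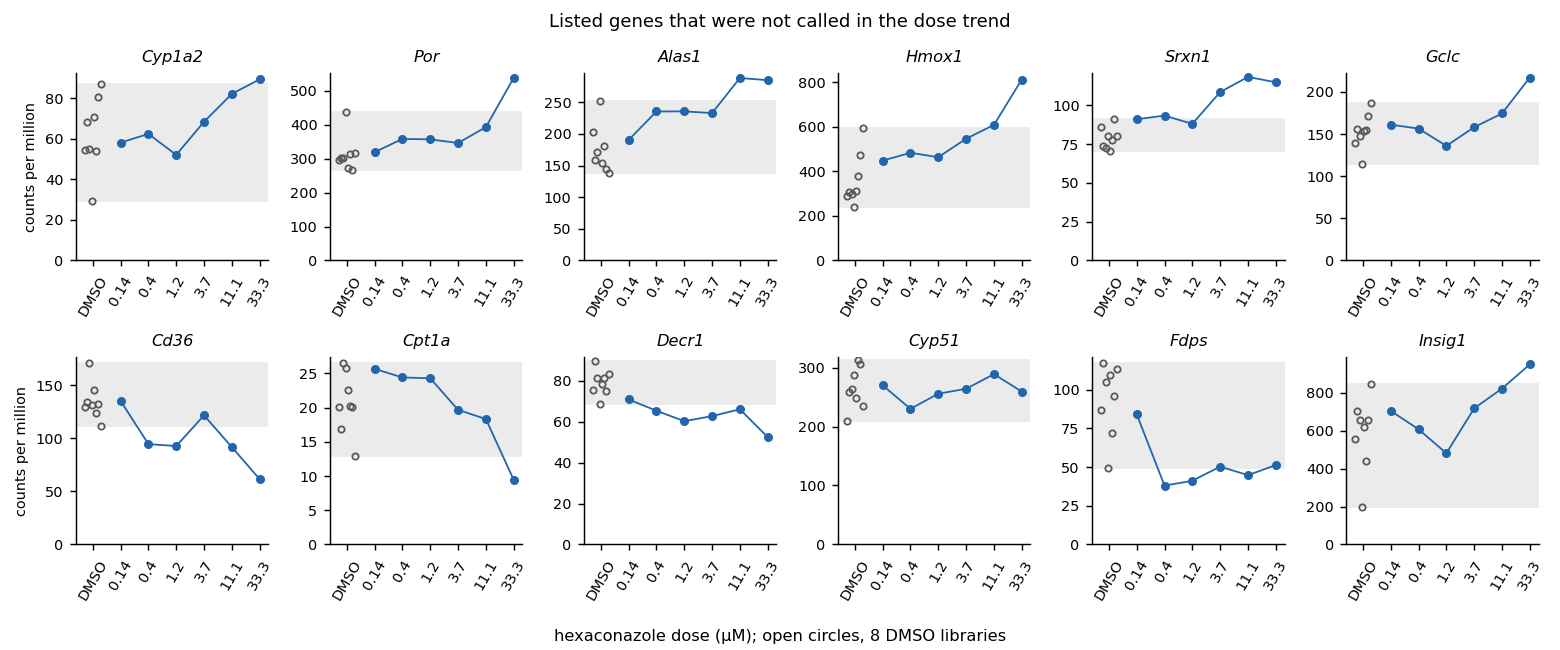
CPM (linear axis from 0) by hexaconazole dose in µM for 12 listed genes that were not called, drawn with the 8 DMSO libraries as open circles and their range as a grey band. Cd36, Cpt1a and Decr1 are lowest at 33.3 µM, Hmox1 and Por are highest there, and Cyp51 stays inside the band at each dose.

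Hexaconazole was then set beside 4 related azoles tested at the same 6 doses on the same plate. Tetraconazole and flusilazole share its triazole ring. Hexaconazole carries a tertiary alcohol and a butyl chain where tetraconazole has a fluorinated ether, and flusilazole is built around a silicon atom that bears fluorinated phenyl rings. Imazalil and triflumizole carry an imidazole ring instead. Slopes of all 5 were fitted together with the DMSO libraries, and 3 differences were tested, with p-values adjusted over all probes and the 3 differences. The imazalil library at 33.3 µM stood apart from all others, with a summed hepatocyte marker level of 14707 CPM and a macrophage marker level of 151 CPM. Results are therefore also given without it. Hexaconazole's own slopes there differ from those of the fit on its own, for example 3.82 ± 0.83 for Cyp2b2.

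No probe separated hexaconazole from tetraconazole, and none from flusilazole, at the adjusted threshold with edgeR (0% of 11055 in each), with 356 and 482 probes at an unadjusted p under 0.05. DESeq2 called 1 against each, Gsta50.81 and Fkbp5. Point estimates of the called enzymes were lower for hexaconazole than for either triazole in most cases. For Cyp3a1 the fitted change was 1.64 with hexaconazole and 2.51 with tetraconazole, a difference of -0.88 (95% interval -1.45 to -0.31, adjusted p = 0.63). Against flusilazole it was -0.78 (-1.35 to -0.21, adjusted p = 0.66). The intervals exclude 0 taken alone, but neither difference survived the adjustment. For Ugt2b1 the difference from flusilazole was -1.62 (-2.64 to -0.60, adjusted p = 0.59) and that from tetraconazole -1.27 (-2.27 to -0.27, adjusted p = 0.72). For Ugt2b10 they were -1.35 (-2.43 to -0.27, adjusted p = 0.73) and -0.99 (-2.06 to 0.09, adjusted p = 0.80). Cyp2b2 differed by -2.46 (-5.03 to 0.11, adjusted p = 0.80) from tetraconazole and by -1.90 (-4.50 to 0.71, adjusted p = 0.82) from flusilazole. These wide intervals leave room for both no difference and a severalfold one.

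At 33.3 µM the single libraries read as follows, side by side. Cyp2b2 had 41.7 CPM with hexaconazole, 60.6 with tetraconazole, 18.0 with flusilazole, 11.4 with triflumizole and 3.48 with imazalil. Cyp1a1 had 10.1, 34.4, 3.83, 20.8 and 0.605 CPM in the same order. Ugt2b10 had 1259, 1754, 2187, 1713 and 250 CPM. Hexaconazole thus lay below tetraconazole in all of these, and above flusilazole for Cyp2b2 and Cyp1a1 only. Crp had 877 CPM with hexaconazole, 902 with tetraconazole, 886 with flusilazole and 678 with triflumizole. Cyp51 had 259, 257, 455, 210 and 259 CPM with hexaconazole, tetraconazole, flusilazole, triflumizole and imazalil.

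Against the mean of both imidazoles 1 probe was called (0.00905% of those tested), Gsta50.81, a probe of a glutathione transferase whose name is given as the file has it. Its fitted change was 0.91 with hexaconazole and 2.32 for the imidazoles, a difference of -1.41 ± 0.21 (95% interval -1.83 to -0.99, adjusted p = 0.00185, edgeR). At 33.3 µM it read 62.2 CPM with hexaconazole, 96.8 with imazalil and 231 with triflumizole. It read 155 CPM with tetraconazole and 88.8 CPM with flusilazole, against 29.0, 38.1 and 40.2 CPM in DMSO. Hexaconazole thus had the lowest top-dose level of the 5 azoles. The difference from tetraconazole was -1.19 (-1.65 to -0.73, adjusted p = 0.11), and it was called (-1.203, adjusted p = 0.0253, edgeR) once the imazalil library at 33.3 µM was left out, as were Gsta2 (-1.37, adjusted p = 0.00936) and Ptgr1 (-1.41, adjusted p = 0.0132) against the imidazoles and Tfrc (1.05, adjusted p = 0.00936) against flusilazole. Gsta50.81 against the imidazoles was then -1.54 (adjusted p = 9.80e-04, edgeR). With the highest dose of all 5 azoles left out, no difference was called. Cyp3a1, Cyp2c6v1 and Ugt2b1 differed from the imidazoles by 0.04 (-0.45 to 0.53), 0.03 (-0.39 to 0.45) and 0.03 (-0.81 to 0.88), and without the imazalil library by -0.33, -0.04 and -0.31. None of these was called.

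**Figure D4:**
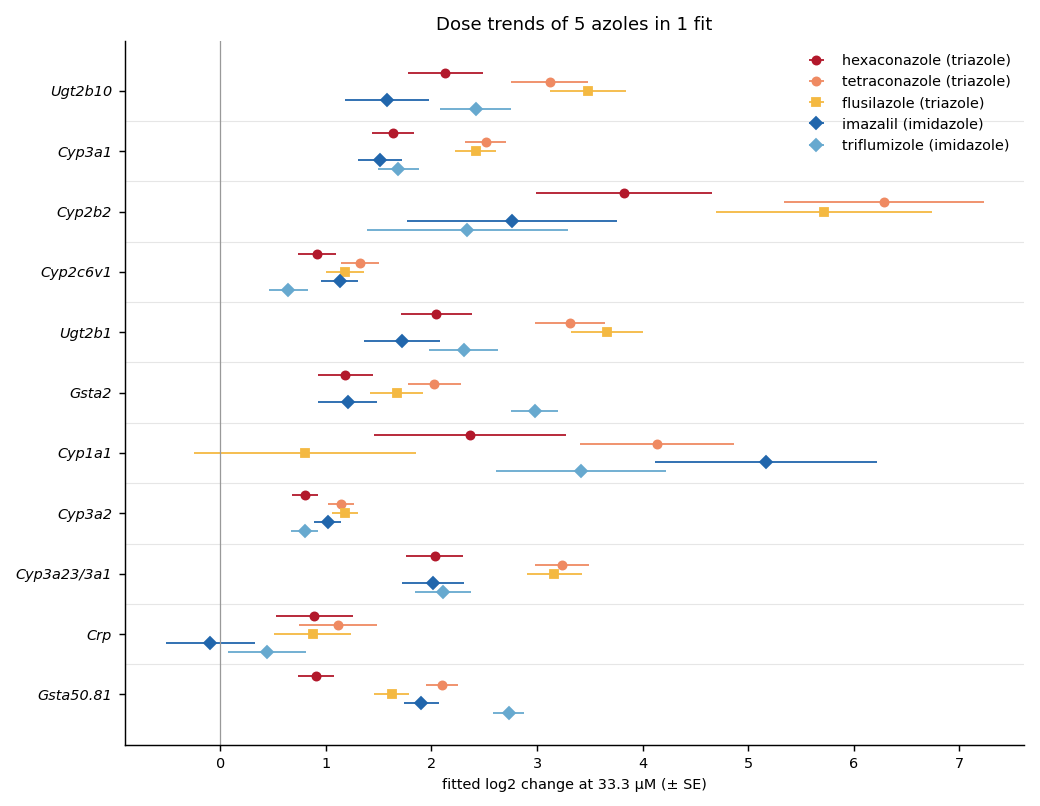
Fitted log2 change at 33.3 µM (x axis, ± SE) of the 10 called probes and Gsta50.81 (y axis) for the 5 azoles, from 1 fit with the DMSO libraries. Hexaconazole lies to the left of tetraconazole for all 11, and for Gsta50.81 it is the leftmost, at 0.91.

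A pair of reference chemicals of the series gives a scale for CAR and PXR targets, 1 library each on plate 2 and at other doses, so no test was made. Pregnenolone 16alpha carbinonitrile at 15 µM, a ligand of rodent PXR, read 2530 CPM for Cyp3a1 and 1.30 CPM for Cyp2b2. TCPOBOP at 1.5 µM, a ligand of mouse CAR, read 496 CPM for Cyp3a1 and 51.0 CPM for Cyp2b2. Hexaconazole at 33.3 µM, with 1455 and 41.7 CPM, was above the DMSO range for both genes, while each reference library was above it for only 1 of them.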

How the data were processed

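The table the authors deposited gives a whole count for each of 22253 probes in each library and is not normalized, judging by its values. The submitters' processing notes name Bowtie as the aligner. Its version, the genome build and the probe sequences are not given in the sources used here. A probe was tested where 6 or more of the 192 libraries reached 1.741 CPM, which is 10 counts at median depth, and 11055 probes were. In R 4.3.3, edgeR 4.0.16 (quasi-likelihood F tests after TMM scaling with a plate factor, Benjamini-Hochberg adjustment) fitted the slope over 14 libraries, each library against DMSO, and slope differences over 38 libraries. DESeq2 1.42.0 was an alternative. The scripts were tested on simulated data. CPM divides a count by its library's total, without TMM. Ligation products are amplified before counting, so intervals and errors cover the spread between libraries only. No 2 libraries agreed within sampling noise (lowest chi-square per degree of freedom 2.45 over 91 pairs).

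The libraries, gene lists and tests were chosen with earlier results of these data known. Genes named are up to 15 called probes per direction averaging 10 counts or more and keeping their sign without 33.3 µM, up to 4 members of each list by smallest p and every called member, up to 5 called probes per direction for each difference, and a fixed panel. A list gene with several probes is represented by the brightest. Genes outside this rule (Hsd3b2, Adm, Mt10.7, Tfrc, Ptgr1, and the interferon, guanylate-binding and Apol3 genes) were chosen after their values were seen. Further alternatives added after seeing the data left out the imazalil library at 33.3 µM, fitted only the chemicals compared, or left out DMSO replicate 5 with the 1.2 µM library.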

Additional observations from a re-analysis of the deposited data

Results flagged for a closer look

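Among 48 genes examined, 3 had a DMSO library far from the other 7, and in each it was replicate 5, the library with the highest library score and the lowest total count. Chance flags about 1 in 20 groups by this measure. Cyp2c6v1 read 185 CPM there against 230 CPM in the next lowest control, and Cyp3a9 32.3 CPM against 45.4 CPM. Por read 437 CPM there against 316 CPM in the next highest control. Without replicate 5 the dose trend called 13 probes, Por among them.

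The hexaconazole slope of Gsta50.81 differed from the mean imidazole slope by -1.41 by the test of the difference itself. Hexaconazole, imazalil and triflumizole had 62.2, 96.8 and 231 CPM at 33.3 µM.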

How the results depend on the processing

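The count of called probes in the trend, 10, was 25 with DESeq2, 3 with DMSO replicate 1 kept and 167 with the library score as a covariate. It was 7 to 13 when single libraries were left out. In 48 single genes over 23 other fits, 1019 values kept direction and side of the threshold, 49 passed it only in the other fit, 29 no longer passed and 7 changed sign. Those of other sign were Ugt1a1 (-0.30 without a plate term, -0.0071 by dose rank, -3.66 with DMSO replicate 1, -0.54 to 0.39 with single libraries left out), Tiparp (-1.05) with DMSO replicate 1, and Nqo1 (-0.044 to 0.30 with single libraries left out). The cause was not tested.

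Single-library calls at 0.4, 11.1 and 33.3 µM were 1, 8 and 18 with DESeq2. Without a filter they were 1 at 0.4, 1 at 1.2, 6 at 11.1 and 22 at 33.3 µM, and without a plate term 1 at 11.1 µM. With single DMSO libraries left out they ranged from 0 to 1 at 0.4, 0 to 8 at 1.2, 0 to 16 at 11.1 and 0 to 24 at 33.3 µM.

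Calls against tetraconazole, flusilazole and the imidazoles were 1, 1 and 2 with DESeq2, 1, 1 and 4 with the library score, 1, 1 and 3 without the imazalil library at 33.3 µM, and 1, 1 and 1 with only the chemicals compared. Against the imidazoles they were 0 by dose rank and 0 without the highest dose. Uncalled differences of other sign, from flusilazole, were Crp with the score (-0.022) and without the highest dose (-0.037). From the imidazoles they were Cyp3a23/3a1 with the score (0.029), and, without the highest dose, Ugt2b10 (-0.21), Cyp3a1 (-0.30), Cyp2c6v1 (-0.15) and Ugt2b1 (-0.32). Without the imazalil library these 4 were -0.34, -0.33, -0.045 and -0.31.

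No paired analysis was possible because each dose has 1 library and DMSO replicate numbers pair nothing. With 1 library per dose, single-dose differences rest on the spread between controls. Probes with few counts, such as Cyp1a1, are limited by depth.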

Other observations

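Some genes known to be induced by interferon are given as values only, since they were picked after their values were seen and stand for no list. Mx2, an antiviral GTPase, read 10.5, 9.69, 8.52, 4.35, 1.002 and 4.96 CPM by dose against 5.26, 6.06 and 10.6 CPM in DMSO. Irf7, a transcription factor of the interferon response, read 11.98, 12.4, 14.6, 6.88, 4.01 and 6.66 CPM against 7.65, 11.3 and 19.97 CPM. Ifit1, an RNA-binding antiviral protein gene, read 4.14, 4.90, 3.21, 1.40, 0.429 and 1.24 CPM against 0.999, 2.63 and 4.27 CPM. All 3 were lowest at 11.1 µM and higher again at 33.3 µM. A probe of Oas1b, a further interferon-induced gene, read 20.5 CPM at 11.1 µM and 44.4 CPM at 33.3 µM, above its DMSO median of 39.2 CPM. With the library score as a covariate this probe was not called (-0.75 ± 0.25, adjusted p = 0.178, edgeR). Another Oas1b probe was called as lower in that fit (-1.44 ± 0.28, adjusted p = 0.00545, edgeR). The trends of Mx2, Irf7 and Ifit1 were -1.83 ± 0.49 (adjusted p = 0.382), -1.56 ± 0.39 (adjusted p = 0.341) and -2.57 ± 0.64 (adjusted p = 0.341, edgeR), none of them called in this fit or by DESeq2. With the library score as a covariate all 3 were called, with adjusted p = 0.014, 0.0127 and 0.00613 (edgeR). Gbp2, a guanylate-binding protein gene, and Apol3 were lowest at 33.3 µM instead, at 5.73 and 33.3 CPM. Both were called as lower by DESeq2 and with the library score (0.0159 and 0.00327, edgeR), but not in the reported trend.

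The 33.3 µM library also had 2 called transcripts that are not drug metabolism genes. Mt10.7, a metallothionein probe by its name, had 2524 CPM there against 588, 848 and 1608 CPM in DMSO, and 1207, 1705, 1613, 1498 and 1639 CPM at the lower doses. Adm, the adrenomedullin gene, had 244 CPM there against 82.9, 98.1 and 196 CPM, and 139 to 158 CPM at the lower doses. The single-library changes were 1.995 ± 0.23 (adjusted p = 0.0301) and 1.53 ± 0.20 (adjusted p = 0.0454, edgeR), and both calls were lost in most fits that left out 1 DMSO library. Both were also lost without the plate term, where the changes were 1.01 for Adm and 1.35 for Mt10.7 (adjusted p = 0.9998 for each, edgeR). The controls differed by plate, with Adm at 82.9 and 91.5 CPM on plate 1, the hexaconazole plate, and 161 to 196 CPM on plate 3. As trends over all doses they were not called.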
